A study of Mus musculus with 12 samples.

Results

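The genes described here are the CDK inhibitors, the RB family and E2F1: Cdkn1a, Cdkn1b and Cdkn1c (the CIP/KIP inhibitors p21, p27 and p57), Cdkn2a, Cdkn2b and Cdkn2c (INK4 inhibitors), Rb1, Rbl1 and Rbl2 (RB, p107 and p130), and E2f1. Every probe set of the array that is annotated to 1 of these 10 symbols alone was taken, which gave 19 of 45101 probe sets and all 10 genes, of 18829 genes that the array names in this way. The probe set with the highest mean over the 12 arrays stands for its gene.

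Cyclin-dependent kinases (CDKs) drive cells from G1 into S phase by phosphorylating RB and its relatives p107 and p130, which otherwise hold E2F factors and keep the genes of DNA replication low. INK4 proteins bind CDK4 and CDK6, while CIP/KIP proteins bind a wider range of cyclin-CDK complexes. Preadipocytes that receive the adipogenic cocktail first divide and then leave the cycle as they become adipocytes, and RB family proteins and CDK inhibitors are known to act at that exit.

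Both cell lines are mouse lines that turn into adipocytes in culture. ST2 cells come from bone marrow stroma (strain label BC8) and carried either the retroviral vector pMSCV with a human SRA cDNA or the empty vector, and 3T3-L1 preadipocytes (strain label Swiss albino) carried the retroviral vector pSuperior with the hairpin shSRA-2 or a control hairpin. SRA, steroid receptor RNA activator, is a transcript that acts as a coactivator of nuclear receptors. All cells, controls included, received MDIT, which is 0.5 mM 3-isobutyl-1-methylxanthine, 1 µM dexamethasone, 0.167 µM insulin and 5 µM troglitazone. RNA was taken on day 4 from ST2 and on day 8 from 3T3-L1 adipocytes, with 3 arrays for each of the 4 groups. The labels name the control hairpin arrays as empty vector, and the study's methods name a control hairpin. The arrays are labelled biological replicates, and nothing further says whether they were separate infections, so that p-values measure the spread between these arrays. Knockdown rests on 1 hairpin, the SRA cDNA is human, and the infected cells were used as selected pools or cultures for which no clone is named.

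The labels were first checked on the targeted gene and on cell type markers. Sra1, the mouse gene, was lower in shSRA than in shControl cells by a log2 difference of -2.36 (SE 0.18, adjusted p = 5.58e-07), and in ST2 it differed by 0.22 (adjusted p = 0.484), although the introduced cDNA is human. The adipocyte genes Adipoq and Fabp4 lay at group means of 14.44 to 14.79 and 14.78 to 14.98 on the log2 scale. Other adipocyte markers differed more between the lines. Of 8 measured, 4 of them tested, 3 were called lower in control ST2 than in shControl cells and 0 higher. Slc2a4 differed most, with means of 10.04 and 12.85. In that comparison 37.4% of all probe sets tested were called lower. Macrophage markers (mean over the list 5.91 to 6.35 per array) and endothelial markers (5.29 to 5.61) stayed low. Of 10 macrophage and blood cell markers 5 had the variance for a test, and 0 were called in either SRA comparison. Between the controls 2 of them were called higher in ST2, where 26.2% of all probe sets tested were called higher. Of 8 endothelial markers 0 had the variance, so that none of those could be called. The control array 2 of ST2 lay apart, at a median of -0.43 from the mean of the other control arrays over the bright probe sets. It was the lowest of the 3 control arrays for 8 of the 10 genes (76.4% of all probe sets tested). The differences of the 10 genes in ST2 are therefore also given without it, and without it 1 macrophage marker was called higher with SRA.

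The INK4 genes Cdkn2a and Cdkn2b are neighbours on chromosome 4 and gave the greatest differences between the lines among these genes, so their promoters are shown, as 250 bases before and 50 after the annotated start (RefSeq, GRCm38.p6). Cdkn2a encodes both p16Ink4a and p19Arf from different first exons, and of its annotated starts the one nearer to Cdkn2b is shown. The start shown was not assigned to either protein here, and it is not to be read as that of p16Ink4a. Capitals mark the E2F octamers (TTTCCCGC, TTTCGCGC, TTTGCCGC or TTTGGCGC) and GC boxes (GGGCGG), each searched on both strands.
Cdkn2a, chr4:89294570-89294869, minus strand: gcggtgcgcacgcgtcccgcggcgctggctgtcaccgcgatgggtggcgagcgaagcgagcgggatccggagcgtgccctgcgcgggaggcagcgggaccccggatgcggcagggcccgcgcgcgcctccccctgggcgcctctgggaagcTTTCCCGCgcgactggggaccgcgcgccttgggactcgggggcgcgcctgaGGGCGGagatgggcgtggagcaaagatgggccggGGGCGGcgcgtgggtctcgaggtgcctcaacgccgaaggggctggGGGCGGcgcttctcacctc
Cdkn2b, chr4:89310983-89311282, minus strand: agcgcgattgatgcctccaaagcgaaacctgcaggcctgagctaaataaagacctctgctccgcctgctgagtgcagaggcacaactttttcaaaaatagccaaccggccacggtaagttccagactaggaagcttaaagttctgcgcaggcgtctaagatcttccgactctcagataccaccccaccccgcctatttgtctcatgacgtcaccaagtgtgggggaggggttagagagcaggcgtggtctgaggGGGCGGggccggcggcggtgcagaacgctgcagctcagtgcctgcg
The Cdkn2a window shown holds TTTCCCGC 99 bases before the start and 3 GC boxes, and the Cdkn2b window holds 1 GC box and no E2F octamer. The window of the other Cdkn2a start, not shown, holds 1 GC box and no E2F octamer. Of the 8 genes with a promoter entry, with 11 starts among them, an E2F octamer was found at 2 starts, those of Cdkn2a shown above and of Rbl1, where TTTCGCGC lies 18 bases before the start. Such an octamer stands in 2.26% of 32851 promoters of this length, while the GC box stands in 35.7% of them and at 9 of these 11 starts. These matches are letters in a window, and no binding was measured.

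The first comparison asked how the genes differed when SRA was overexpressed in ST2 adipocytes. Rb1 was the gene that passed the test, and it was higher with SRA. Its control arrays read 10.06, 9.59 and 9.73 on the log2 scale, and its SRA arrays read 10.48, 10.27 and 10.49. All 3 SRA arrays thus lay above all 3 control arrays. The means were 9.79 ± 0.24 (SD, n = 3) and 10.41 ± 0.13 (SD, n = 3), a log2 difference of 0.62 (SE 0.17, 95% interval 0.26 to 0.97, limma adjusted p = 0.0278), or 1.54-fold. Among the 10 genes 1 was called higher and 0 lower, where 2.33% of all probe sets tested were called higher and 5.65% lower.

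The Rb1 difference was not seen in every reading of the gene. The other Rb1 probe set, which is dimmer, read 5.54, 5.01 and 5.26 in control and 5.22, 5.16 and 5.56 in SRA cells, a log2 difference of 0.04 (SE 0.18, adjusted p = 0.919). With both probe sets averaged the difference was 0.33 (adjusted p = 0.188), and with ST2 fitted alone the adjusted p was 0.0929. Without control array 2 the difference was 0.52 (adjusted p = 0.0434). It kept its size but missed the threshold without control array 3 (0.59, adjusted p = 0.0811) and without SRA array 1, 2 or 3 (0.58, 0.69 and 0.58, adjusted p = 0.111, 0.0585 and 0.110).

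The other pocket proteins did not pass the test. Rbl1, which encodes p107 and is itself an E2F target, read 8.96, 8.28 and 8.75 in control and 8.15, 8.32 and 8.63 in SRA cells, a log2 difference of -0.30 (95% interval -0.69 to 0.09, adjusted p = 0.361). The groups overlapped through control array 2, and without that array the difference was -0.49 (adjusted p = 0.0639). Rbl2, which encodes p130, the pocket protein of resting cells, read 9.31, 8.51 and 9.14 against 9.17, 9.12 and 9.32, a difference of 0.21 (95% interval -0.18 to 0.61, adjusted p = 0.522), or -0.02 without control array 2.

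Of the CIP/KIP inhibitors, none was called in ST2. Cdkn1a, the p53 target that encodes p21, read 13.36, 12.90 and 13.26 in control and 13.17, 13.20 and 13.21 in SRA cells. The SRA arrays lay within the range of the control arrays, with a log2 difference of 0.02 (95% interval -0.32 to 0.36, adjusted p = 0.959). Cdkn1b, which encodes p27, read 11.13, 10.54 and 10.79 against 10.90, 10.61 and 10.87, a difference of -0.03 (95% interval -0.46 to 0.40, adjusted p = 0.945). Without control array 2 these differences were -0.12 for Cdkn1a (adjusted p = 0.647) and -0.17 for Cdkn1b (adjusted p = 0.685). Changes smaller than these bounds could not be resolved with 3 arrays a group. Cdkn1c, which encodes p57, stayed between 4.87 and 5.20 on all 12 arrays, and its variance of 0.014 was under the minimum of 0.05 for a test.

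The INK4 genes likewise overlapped between control and SRA cells. Cdkn2a read 5.51, 4.78 and 5.42 in control and 5.16, 5.26 and 5.26 in SRA cells (log2 difference -0.01, 95% interval -0.45 to 0.42, adjusted p = 0.978). Cdkn2b, which encodes p15, read 6.98, 7.35 and 7.30 against 7.25, 6.42 and 6.98 (difference -0.32, 95% interval -0.79 to 0.14, adjusted p = 0.409). Cdkn2c, which encodes p18 and is an INK4 gene known for its rise in differentiating adipocytes, read 12.42, 11.996 and 12.34 against 12.42, 12.69 and 12.51. Its difference of 0.29 (95% interval -0.08 to 0.65, adjusted p = 0.343) did not pass. Without control array 2 the differences were -0.24 for Cdkn2a, -0.25 for Cdkn2b and 0.16 for Cdkn2c, and none passed.

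E2f1, the activator that RB holds back, did not pass the test either. It read 8.92, 8.40 and 8.97 in control and 8.58, 8.65 and 8.62 in SRA cells, a log2 difference of -0.15 (95% interval -0.51 to 0.22, adjusted p = 0.646). The other tested E2f1 probe set gave -0.23 (adjusted p = 0.436). Without control array 2 the leading probe set gave -0.33 (adjusted p = 0.135).

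**Figure D1:**
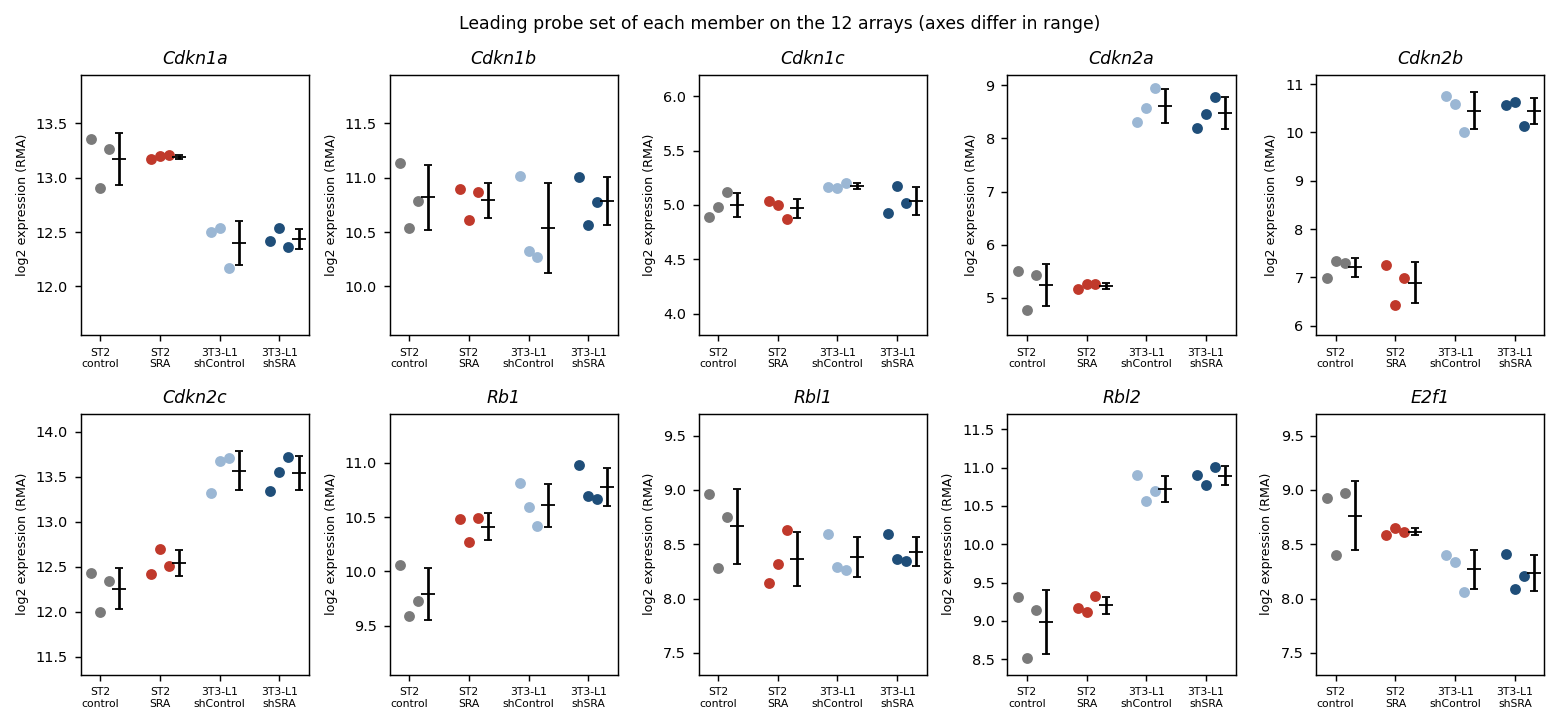
Log2 expression (RMA) of the leading probe set of each gene on every array, with a panel for each gene and a column for each group. Points are arrays 1, 2 and 3 from left to right, and the black bar is the mean ± SD. Axes differ in range. The 3 Rb1 arrays with SRA lie above the 3 ST2 control arrays, and Cdkn2a, Cdkn2b, Cdkn2c and Rbl2 lie higher on all 6 3T3-L1 arrays than on all 6 ST2 arrays. How many of all probe sets separate groups or lines in this way was not counted.

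The second comparison asked the same of SRA knockdown in 3T3-L1 adipocytes, and here no gene of the 10 was called. Rb1 read 10.81, 10.59 and 10.42 in shControl and 10.98, 10.69 and 10.67 in shSRA cells, a log2 difference of 0.17 (95% interval -0.18 to 0.53, adjusted p = 1.00). The groups overlapped for Rb1, as they did for the other 9 genes. On the leading probe set Rb1 was higher with shSRA within each pair of the same number, by 0.17, 0.10 and 0.25. The other Rb1 probe set, which is dimmer, went the other way, with a difference of -0.17 (95% interval -0.54 to 0.20). Cdkn1b gave the largest difference of the genes tested, with 11.01, 10.32 and 10.27 against 11.01, 10.57 and 10.78 (0.25, 95% interval -0.18 to 0.68, adjusted p = 1.00).

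The remaining genes differed by less than Cdkn1b in 3T3-L1 adipocytes. Cdkn1c, which had too little variance for a test, differed by -0.14. Rbl2 read 10.90, 10.56 and 10.69 in shControl and 10.90, 10.77 and 11.01 in shSRA cells (0.17, 95% interval -0.22 to 0.57). Cdkn2a read 8.31, 8.57 and 8.95 against 8.19, 8.46 and 8.78 (-0.14, 95% interval -0.57 to 0.30). For Cdkn2a the array of each number was lower with shSRA, by 0.12, 0.11 and 0.17. Cdkn1a (0.04), Cdkn2b (-0.01), Cdkn2c (-0.03), Rbl1 (0.05) and E2f1 (-0.03) lay within 0.05 of 0, with intervals that reached from -0.47 to 0.46 at the widest.

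Few probe sets of any gene were called in this comparison, 0.0315% higher and 0.042% lower of those tested. At an unadjusted p under 0.05 limma called 0 of the 9 genes tested, beside 533 of all 19068 probe sets tested, so this count does not set the genes apart. Samples of the same number deviated together in 3T3-L1 adipocytes, and with the number as a block 0.325% of probe sets were called higher and 0.205% lower, and still 0 of the 10 genes, with an adjusted p of 1.00 for Rb1 and Cdkn2a.

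The difference between the ST2 and the 3T3-L1 effect was tested directly and was called for 0 of the 10 genes, where 0.246% of probe sets were called higher and 2.07% lower in ST2. For Rb1 the effects differed by 0.45 (SE 0.24, 95% interval -0.06 to 0.95, adjusted p = 0.522). This contrast sets gain of SRA in ST2 against its loss in 3T3-L1, so the line and the direction of the SRA change cannot be told apart. Whether the rise of Rb1 is particular to ST2 was therefore not tested.

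**Figure D2:**
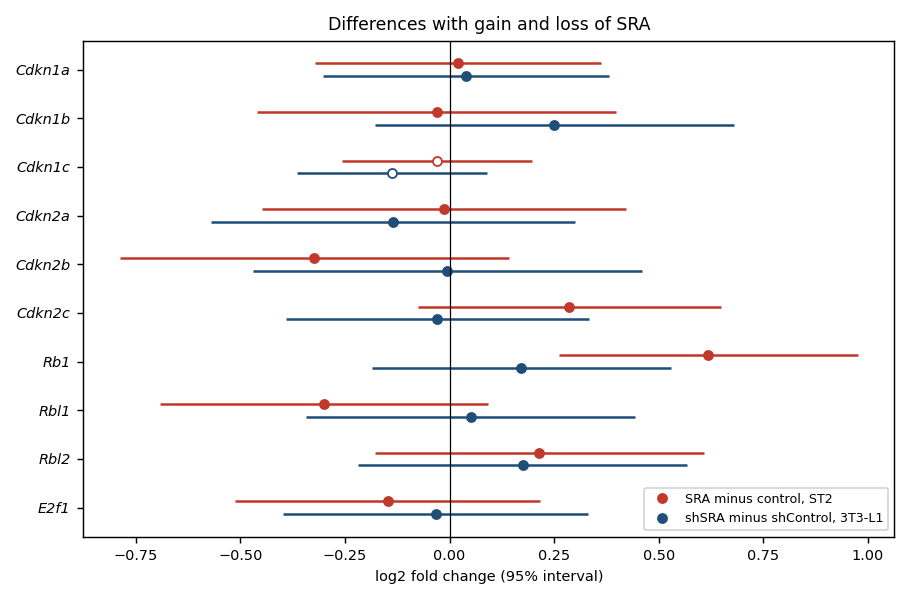
Log2 difference of each gene in both SRA comparisons (horizontal axis, 95% interval as bars), with overexpression in ST2 set against its empty vector and knockdown in 3T3-L1 set against its control hairpin. Open points are Cdkn1c, which had too little variance to be tested and whose interval comes from the fit of all probe sets. Only the ST2 interval of Rb1 (0.26 to 0.97) lies clear of 0.

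The other genes of the pathway were read from lists written from textbook knowledge, with earlier results of these data known. With SRA in ST2 adipocytes, the E2F target genes of G1 and S phase were lower for 9 of 24 measured genes and higher for 0, with a median log2 difference of -0.48, against 0.06 over all 45101 probe sets. Medians of lists are over the measured genes, also those with too little variance for a test, and 22 of these 24 had enough. The replication helicase subunit Mcm5 fell by 1.86 (SE 0.21, adjusted p = 7.7e-06) and the ribonucleotide reductase subunit Rrm2 by 1.75 (SE 0.22, adjusted p = 2.29e-05), and both are needed to copy DNA. The DNA methylation cofactor Uhrf1 differed by -1.52 and thymidine kinase Tk1 by -1.51 on the log2 scale, and both passed the test. Mcm6, Cdc6, Mcm4, Chek1 and Lig1 also fell. Without control array 2 the count was 13, and the calls of Mcm4, Chek1 and Lig1 were lost when 1 of several other ST2 arrays was left out (adjusted p up to 0.102, 0.147 and 0.146). In 3T3-L1 adipocytes none of the 24 was called, and the median was 0.12, against -0.01 over all probe sets.

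The kinases and cyclins that the inhibitors bind moved in part. Of 10 G1 cyclins and CDKs, 6 of them tested, 3 were lower in ST2 with SRA: cyclin A2 (Ccna2, -1.97, SE 0.20, adjusted p = 3.65e-06), cyclin D1 (Ccnd1, -1.53, SE 0.21, adjusted p = 8.94e-05) and Cdk1 (-1.15, SE 0.18, adjusted p = 0.000362), and the list's median was -0.23, or -0.72 over the tested genes alone. Cyclin D1 partners the INK4 targets CDK4 and CDK6, whereas Ccna2 and Cdk1 act later, in S phase and at mitosis. Of 9 other E2F and DP factors, 5 of them tested, the repressors E2f7 (-1.30, SE 0.19, adjusted p = 0.000153) and E2f8 (-0.66, SE 0.17, adjusted p = 0.0151), which are themselves E2F targets, were lower, with a median of -0.14 for the list. The call of E2f8 was lost without SRA array 1 or 3 (adjusted p up to 0.075).

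Lists upstream of the inhibitors had few calls in ST2. Of 12 measured p53 targets other than Cdkn1a, 9 of them tested, only Sesn1, a stress sensor, was called (-0.89, SE 0.15, adjusted p = 0.000462), and the list's median was -0.07. Of 8 genes of p27 turnover and transcription, 5 of them tested, only Skp2, the ubiquitin ligase subunit that marks p27 for degradation, was called (-0.76, SE 0.22, adjusted p = 0.032), beside a Cdkn1b difference of -0.03. The list's median was 0.11, and -0.07 over the tested genes alone. The Skp2 call was lost without control array 1 or 3 or SRA array 1 or 2 (adjusted p up to 0.235), with ST2 fitted alone (adjusted p = 0.0606) and without the variance filter. Of 4 other CDK inhibitors, the phosphatase Cdkn3 was lower (-0.61, adjusted p = 0.0223), a call that was lost without control array 1 or any SRA array (adjusted p up to 0.0872) and with ST2 fitted alone (0.095). None of 7 MuvB genes (3 tested, median 0.02) and none of 10 repressors of the INK4 locus (7 tested, median 0.14) was called. In 3T3-L1 adipocytes no gene of these 8 lists was called.

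**Figure D3:**
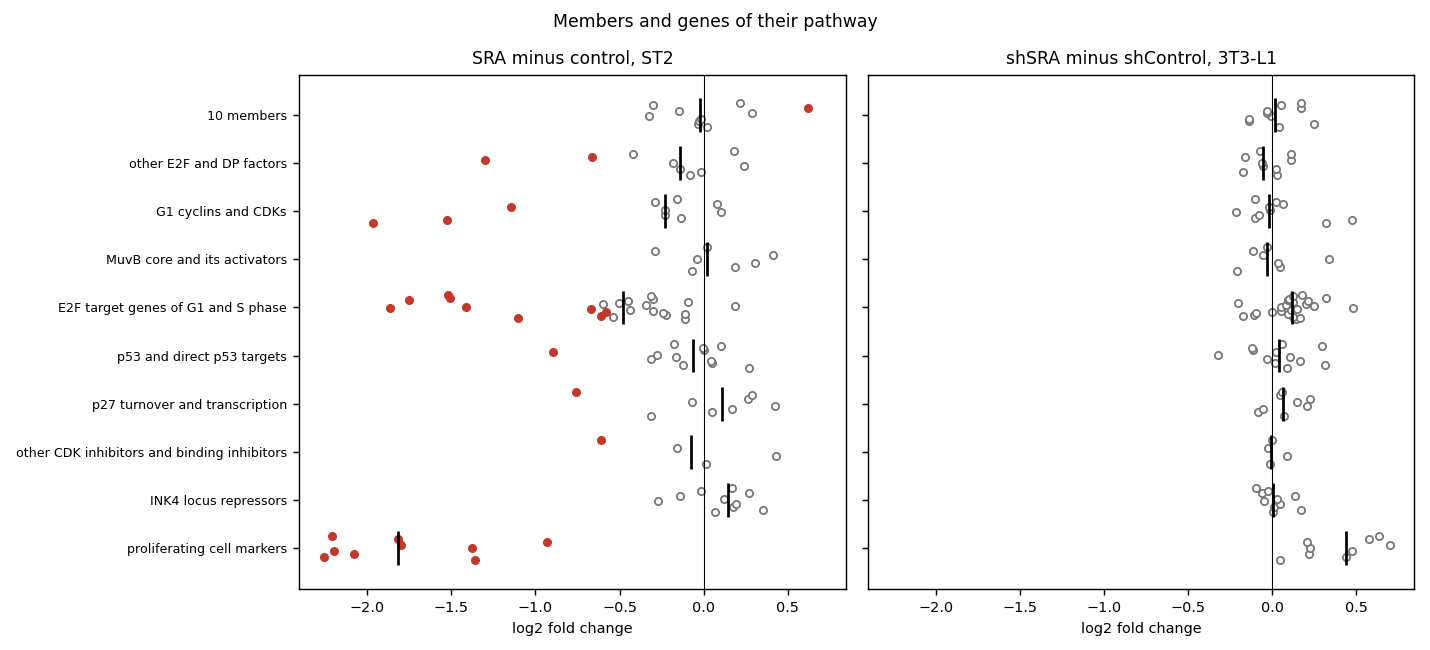
Log2 difference of the 10 genes, of every measured gene of the pathway lists and of the proliferating cell markers in both SRA comparisons (horizontal axis), with a row for each list. Filled red points passed the test, open points did not, and the black bar is the list's median. In ST2, the calls lie on the low side, 9 of 24 for E2F targets, except Rb1 in the top row, and in 3T3-L1 adipocytes there are none.

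Cell type markers moved with SRA in ST2 beside Rb1 and the E2F targets. All 9 measured markers of proliferating cells were lower (median -1.82), while in 3T3-L1 adipocytes with shSRA their median was 0.44 with 0 called and 3 at an unadjusted p under 0.05. With the replicate number as a block 1 of them, Mki67, was called there (0.70, SE 0.15, adjusted p = 0.022), and the mean of the list was higher with shSRA in each pair. Over the list the mean level was 7.99 to 8.84 on the control arrays, 6.21 to 7.11 on the SRA arrays, 5.59 to 5.80 on the shControl arrays and 5.88 to 6.23 on the shSRA arrays. Of 9 preadipocyte and fibroblast markers 4 were lower (Col3a1, Col1a1, Pdgfra and Pdgfrb), with mean levels of 9.76 to 10.02 on control and 9.07 to 9.33 on SRA arrays. Of 8 adipocyte markers, 4 of them tested, 1 was called higher, Slc2a4 (1.08). All 4 tested were higher at an unadjusted limma p under 0.05, a threshold that 4231 of all 19068 probe sets tested passed in either direction. The mean levels of the adipocyte list were 11.80 to 12.15 on control and 12.28 to 12.36 on SRA arrays. The part of these shifts in the Rb1 difference was not tested. In such bulk RNA, fewer cells of a type and less RNA per cell cannot be told apart.

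The genes whose pattern was most like that of Rb1 over the 12 arrays, after each line was centred on its own mean, were N4bp2l1 (Pearson r = 0.96), Exoc6 (0.95) and Smim11 (0.95). These values describe arrays that share their groups and carry no test. In ST2 their log2 differences with SRA were 0.68, 0.61 and 0.36, which the choice of genes that follow Rb1 favours.

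The control groups of the lines differed far more than the SRA groups did. Between control ST2 and shControl 3T3-L1 adipocytes, 2 of the 10 genes were higher in ST2 and 5 were higher in 3T3-L1, where 26.2% of probe sets were called higher and 37.4% lower in ST2. The line, the day of harvest and the vector cannot be told apart in this comparison. The median size of the difference was 0.80 for the 10 genes, 0.53 over all probe sets tested and 0.20 over all 45101.

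All 3 INK4 genes were higher in 3T3-L1 adipocytes. Cdkn2a lay between 4.78 and 5.51 on the 6 ST2 arrays and between 8.19 and 8.95 on the 6 3T3-L1 arrays, with control means of 5.24 ± 0.40 and 8.61 ± 0.32 (SD, n = 3), a log2 difference of -3.37 (SE 0.21, 95% interval -3.81 to -2.94, adjusted p = 4.28e-11) or 10.3-fold. Its neighbour Cdkn2b lay between 6.42 and 7.35 in ST2 and between 10.02 and 10.75 in 3T3-L1, with a log2 difference of -3.24 (SE 0.22, adjusted p = 2.31e-10) or 9.48-fold. A difference at least as large as theirs was found for 1.63% and 1.79% of probe sets. Cdkn2c, which lies elsewhere on chromosome 4, differed by -1.31 (SE 0.17, adjusted p = 2.67e-06) or 2.49-fold. In each of these genes the arrays of the lines did not overlap. How many of all probe sets separate the lines in this way was not counted. With 26.2% of them called higher and 37.4% lower in ST2, separation alone does not set these genes apart. The deposited values carry no detection call, and if the ST2 signal of Cdkn2a is background, its fold is a lower bound. The Cdkn2a probe set does not separate p16Ink4a from p19Arf.

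The RB family was split. Rbl2 was higher in 3T3-L1 adipocytes by 3.32-fold, with a log2 difference of -1.73 (SE 0.19, adjusted p = 1.99e-07), and its other probe set gave -1.82. Rb1 was higher by 1.76-fold (-0.82, SE 0.17, adjusted p = 0.000458), and here both of its probe sets agreed in direction (-0.69, adjusted p = 0.00267). The Rb1 arrays of ST2 with SRA, 10.27 to 10.49, reached into the range of the shControl arrays, 10.42 to 10.81, while those of ST2 control, 9.59 to 10.06, did not. Rbl1 differed by 0.28 (adjusted p = 0.184), and 1 of its other probe sets passed at 0.51 (adjusted p = 0.0298). Without ST2 control array 2 the leading probe set passed as well, at 0.47 (adjusted p = 0.0181).

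Cdkn1a and E2f1 were the genes that were higher in ST2. Cdkn1a averaged 13.17 ± 0.24 in control ST2 and 12.40 ± 0.20 in shControl 3T3-L1 adipocytes, a log2 difference of 0.78 (SE 0.16, adjusted p = 0.000496) or 1.71-fold, without overlap. E2f1 averaged 8.76 ± 0.32 and 8.27 ± 0.18, a difference of 0.50 (SE 0.17, adjusted p = 0.0195), and array 2 of ST2 control overlapped the 3T3-L1 arrays. The E2f1 call was lost without ST2 control array 1 (0.42, adjusted p = 0.0614) or 3 (0.39, adjusted p = 0.0836) and without shControl array 3 (0.39, adjusted p = 0.0972), while without ST2 control array 2 the difference was 0.68 (adjusted p = 0.0007). Cdkn1b, with 10.82 ± 0.30 and 10.54 ± 0.41, differed by 0.29 (adjusted p = 0.218).

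The E2F targets stood with E2f1, 18 of 24 being higher and 2 lower in control ST2 (median 0.55), and so did the proliferating cell markers, of which all 9 were higher (median 2.98). Of 10 repressors of the INK4 locus, 7 of them tested, the Polycomb genes Bmi1, Suz12 and Cbx8 were lower in ST2 and Phc2 was higher. Of all probe sets tested, 37.4% were called lower and 26.2% higher, so these counts do not set the list apart. A link to Cdkn2a and Cdkn2b was not tested. The median over all probe sets was -0.12 for those tested and -0.02 without the filter.

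**Figure D4:**
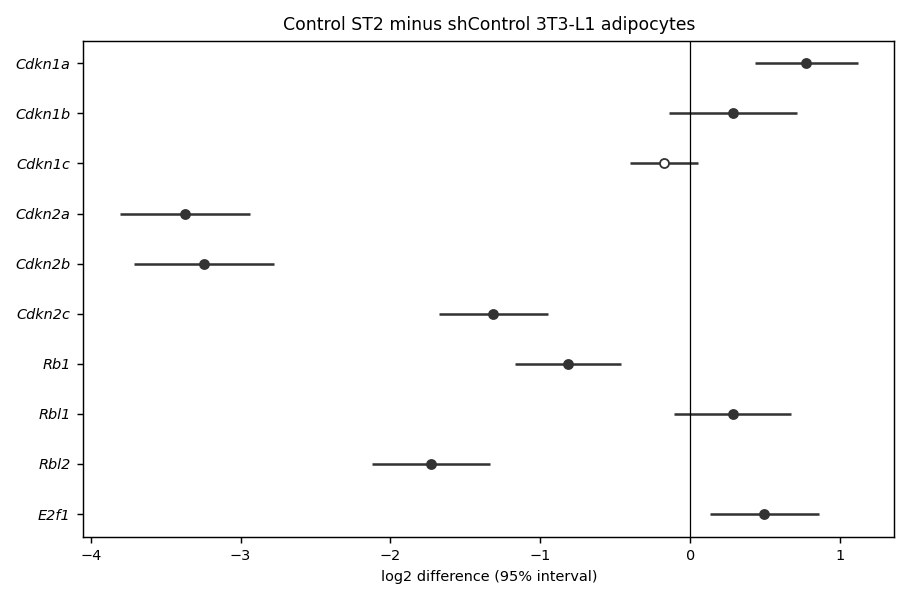
Log2 difference between control ST2 and shControl 3T3-L1 adipocytes for each gene (horizontal axis, 95% interval as bars). Values left of 0 are higher in 3T3-L1. The open point is Cdkn1c, whose interval comes from the fit of all probe sets. Cdkn2a and Cdkn2b lie furthest from 0, at -3.37 and -3.24, and the size for Cdkn2a is a lower bound if its ST2 signal is background.

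The order of the group means differed from gene to gene. For Cdkn2a, Cdkn2b, Cdkn2c and Rbl2 both 3T3-L1 groups lay above both ST2 groups, and for Cdkn1a both lay below, while neighbours within a line did not pass the test. For Rb1 the order ran from ST2 control (9.79 ± 0.24) over ST2 SRA (10.41 ± 0.13) and shControl (10.61 ± 0.20) to shSRA (10.78 ± 0.17). The step from ST2 control to ST2 SRA was the step that passed the test, and the steps that followed were within the spread of overlapping arrays. On the dimmer Rb1 probe set shSRA lay below shControl (5.80 ± 0.16 and 5.97 ± 0.21). For E2f1 both ST2 groups had the higher means. For Cdkn1b and Rbl1 the 4 groups overlapped throughout.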

How the data were processed

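RNA was hybridised to Affymetrix GeneChip mouse genome arrays, 12 in all, and the authors deposited log2 values made by robust multi-array average (RMA), which normalizes all arrays to 1 distribution and can thereby narrow shifts that touch most genes. For that step no software version is given in the sources used here. From these values on, limma 3.58.1 in R 4.3.3 was used. Probe sets with a variance above 0.05 over the arrays were kept (19068), as in the study's methods, a model of the 4 groups was fitted, and each comparison was tested alone, with Benjamini-Hochberg adjustment over all 19068 at 0.05. Values named "adjusted p" come from this test. Arrays carry no read depth, so their number limits the precision.

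Genes were named through the platform annotation, in which 34958 probe sets had 1 symbol, 932 several and 9211 none. The members and lists were chosen with earlier results of these data known. Named genes are all members, up to 4 called genes of each list with the largest changes, and the 3 genes most like Rb1, and others were named after their values were seen. A list gene is read by its brightest probe set.

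Replicate numbers come from the labels. Same-numbered arrays deviated together in 3T3-L1 (correlations 0.59, 0.59 and 0.38) and so pair these arrays. In ST2 arrays 2 and 3 did so as well (0.27 and 0.53), but array 1 did not (0.04). Control array 1 of ST2 went more with SRA array 3 (0.20), so the pairing is less clear there. The model reported has no block, as in the study's methods, and the fit with the number as a block is an alternative, given in part. With the block 1377 probe sets were called higher and 1646 lower in ST2. It also raised the E2F targets called lower there to 13. Adipocyte and macrophage markers called higher in ST2 with SRA became 2 and 1. No arrays held the same values (highest correlation 0.997). The steps were tested on simulated data. The alternatives were no variance filter, a filter on a mean of 6, the replicate block, the nested F classification, each line alone, array weights, another quantile normalization, centring on bright probe sets (mean of 8 or more), other choices of probe set and leaving out each array.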

Additional observations from a re-analysis of the deposited data

How the results depend on the processing

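Of 727 values of single genes under 22 alternatives, 711 stayed on their side of the threshold. A change of sign was seen in 47, each of a value that had not been called and was at most 0.35 in size, and no called value reversed. The count of the 10 genes called higher in ST2 with SRA, 1, was 0 with probe sets averaged, with ST2 fitted alone and with the nested F classification, and 0 to 1 when an array was left out. The count called lower, 0, was 1 with array weights (Rbl1, -0.46, adjusted p = 0.0188). The adjusted p of Rb1 ranged from 0.00177 to 0.188 over the alternatives that give one. No gene was called in 3T3-L1 adipocytes under any alternative (lowest adjusted p 0.578, Cdkn1b). With the replicate block the Rb1 difference of 0.62 had an adjusted p of 0.0038, and the block changed no call of the 10 genes in either SRA comparison. The pathway genes called lower in ST2, 17, were 31 with array weights, 11 with each line alone, and 11 to 25 when an array was left out (11 without SRA array 1). Those called higher, 0, were 1 with array weights and 0 to 1 when an array was left out. Those called lower in the difference of effects, 11, were 21 with array weights and 9 to 18 when an array was left out (18 without ST2 control array 2). The count higher in ST2 control than in shControl, 2, was 4 with array weights (Cdkn1b and Rbl1 added), 1 with probe sets averaged and 1 to 3 when an array was left out. Among all probe sets, those called in ST2 ranged from 133 to 1377 higher (445 as reported) and 587 to 2699 lower (1077), and in 3T3-L1 from 1 to 62 higher (6) and 2 to 44 lower (8). Dim probe sets such as those of Cdkn1c, and of Cdkn2a in ST2, lie where these arrays resolve little, and a change there may go unseen.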

Other observations

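Mdm2, which encodes the ubiquitin ligase of p53 that p19Arf inhibits, stood apart from the other p53 targets between the lines. It was named after its values were seen. It read 11.33, 11.29 and 11.58 in ST2 control and 11.31, 11.18 and 11.21 in ST2 with SRA, against 14.55, 14.45 and 14.49 in shControl and 14.63, 14.63 and 14.56 in shSRA 3T3-L1 adipocytes. The log2 difference of the controls was -3.10 (SE 0.15, adjusted p = 7.4e-13), 8.57-fold higher in 3T3-L1, and the other probe sets of the gene gave -3.49 and -2.82. Of the 12 measured p53 targets, 5 were higher in ST2 and Mdm2 was the 1 that was lower. Trp53inp1, another p53 target, was higher in ST2 by 1.07 (SE 0.19, adjusted p = 6.84e-05) and Zmat3 by 1.37 (SE 0.17, adjusted p = 1e-06), as Cdkn1a was by 0.78. High Mdm2 and high Cdkn2a were thus found in the same arrays, and line, day and vector cannot be told apart there.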
